A study of Homo sapiens with 10 samples.

Results

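The SR proteins and the hnRNP proteins are the main families of RNA-binding proteins that set which exons enter an mRNA. They were followed here as 37 genes in cells labelled as human brain endothelial cells. Of the 58735 rows of the count table, 12 carry an SRSF symbol with a number and 25 an HNRNP symbol, pseudogenes left out. RNA-seq was made from 10 libraries labelled HCMECs, a cell line, and the 5 siUSP9X libraries came from cells given a small interfering RNA against USP9X, a deubiquitinase. The 5 siCtrl libraries came from cells given a control siRNA. Both groups were transfected for 48 h and then stimulated with Wnt3a, a Wnt ligand, for 12 h, so no unstimulated cells enter any comparison. The study asks whether USP9X acts on Wnt signalling in brain vessels, and the question put here is whether its knockdown changed the mRNA levels of the splicing regulators. Nothing in the labels says that libraries of 1 group are separate cultures, so the p-values reflect library-to-library spread that may be technical.

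SR proteins bind exonic enhancers through RNA recognition motifs and recruit the U1 and U2 particles through a domain rich in arginine and serine, whose phosphorylation by the SRPK and CLK kinases moves them into the nucleus and in and out of nuclear speckles. The hnRNP proteins coat nascent transcripts and often act against SR proteins by masking splice sites, and several of them also govern mRNA export, translation and decay. Many genes of both families limit their own protein by splicing in an exon that sends the transcript to nonsense-mediated decay. GENCODE release 29 lists such a decay transcript for 12 of the 12 SR genes and for 13 of the 21 hnRNP genes tested. A count per gene adds productive and unproductive transcripts together, so the values below are total mRNA of each gene and not the output of any one isoform.

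The libraries held 15958362 to 20442278 counts in siUSP9X and 17716250 to 26467787 counts in siCtrl. Levels are given as CPM, counts scaled to the library's total over the tested genes after TMM correction. USP9X itself, on the X chromosome at 41085635 to 41236579 (GRCh38, plus strand), had 36.5, 68.8, 27.6, 22.4 and 20.7 CPM in siUSP9X replicates 1 to 5, against 416, 283, 330.3, 324 and 352 CPM in siCtrl replicates 1 to 5. The groups did not overlap, and the log2 fold change was -3.28 ± 0.32 (SE, edgeR adjusted p = 0.000403). The markers went against the label of endothelial cell for most of the list: 11 of 14 endothelial markers were under 1 CPM, among them PECAM1, CDH5, KDR and VWF, with ERG and EMCN at 0 in all 10 libraries, while ESAM, ENG and EGFL7 had at least 10 CPM. The 14 markers summed to 109.8 to 254 CPM in siUSP9X and 236 to 299.5 CPM in siCtrl, and 0 of the 4 tested passed the test. Keratins KRT8 and KRT18 had at least 10 CPM, but most of the epithelial list was low too. Of its 8 markers, 5 were under 1 CPM, EPCAM, CDH1, KRT19, KRT5 and KRT14, with KRT5 and KRT14 at 0. The 8 epithelial markers summed to 2033 to 2760 CPM in siUSP9X and 3319 to 4179 CPM in siCtrl, with 2 of the 4 tested lower, against 3.22% of all tested genes. KRT8 and KRT18 carried nearly all of that sum, as the only ones of the 8 with at least 10 CPM. The part of the markers in the results below was not tested. The library siUSP9X replicate 2 differed from the rest, with 2.15% of its counts in ribosomal protein genes where the remaining siUSP9X libraries had 4.49 to 5.20% and siCtrl 4.86 to 6.47%, so the results below are also given without it.

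SRSF8 was the 1 SR or hnRNP mRNA whose level differed past the threshold between siUSP9X and siCtrl cells. Of the 37 members, 33 were expressed enough to be tested, all 12 SR and 21 hnRNP genes. In siUSP9X cells 1 member fell, SRSF8, and 0 rose (edgeR quasi-likelihood test, Benjamini-Hochberg adjusted p under 0.05 over 13934 tested genes). Among all tested genes 3.22% were lower and 4.09% higher, so the members' shares of 3.03% lower and 0% higher lay at and below the background. At an unadjusted p under 0.05 there were 4 lower members (SRSF8, SRSF4, HNRNPAB and HNRNPA2B1) and 1 higher (HNRNPLL), together 15.2% of the members, where the background was 11.9% of tested genes lower and 15.9% higher, 27.8% together. Under DESeq2 there were 2 lower members (SRSF8 and SRSF4) and 1 higher (HNRNPLL), against a background of 7.89% of genes lower and 9.25% higher. Limma-voom called SRSF8 alone among the members, against 3.52% of genes lower and 3.92% higher. In bulk RNA, fewer cells of a type and less RNA per cell cannot be told apart.

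The members' fold changes were small. On the log2 scale they were below 0 for 23 of 33 members and above 0 for 10, so 69.7% were below 0 where 47.6% of all tested genes were, with a median of -0.08 against 0.03 over all tested genes and a range of -0.50 to 0.25. They lay within 0.1 of 0 for 13 members and within 0.2 for 22. The 95% interval of the fold change stayed inside a 1.25-fold change in either direction for 13 members, inside 1.5-fold for 28 and inside 2-fold for all 33 tested. By depth, 29 of the 33 members had more than 1000 counts in every library. Without siUSP9X replicate 2 the intervals lay inside 1.25-fold for 21 members, inside 1.5-fold for 30 and inside 2-fold for 33.

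**Figure D1:**
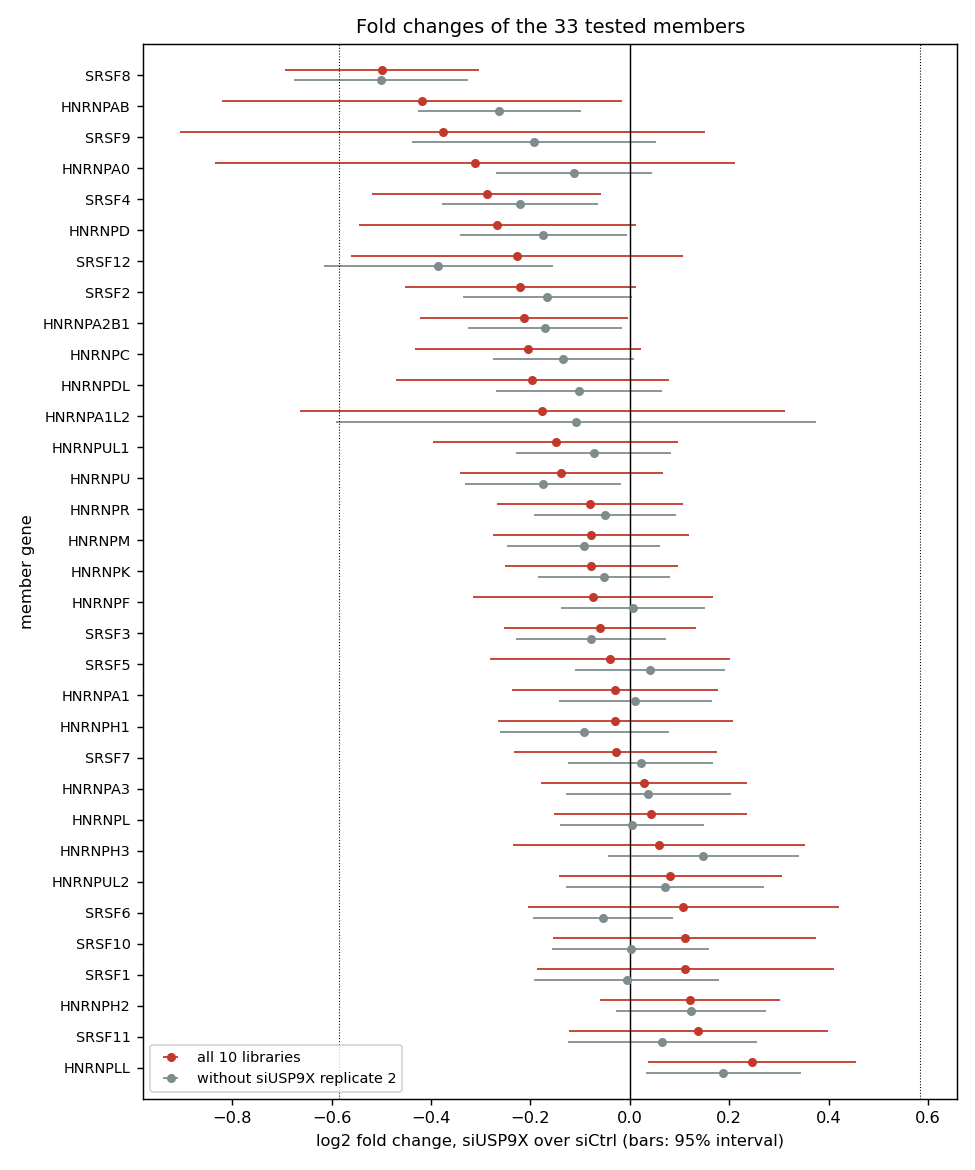
Log2 fold change of each tested member, siUSP9X over siCtrl, with its 95% interval from the edgeR fit, for all 10 libraries (upper, red) and without siUSP9X replicate 2 (lower, grey). Dotted lines mark 1.5-fold in either direction. SRSF8 lies lowest at -0.50 in both fits, and HNRNPLL is the highest member at 0.25 with all libraries.

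SRSF8 was the SR gene that fell. It encodes an SR protein and arose as a processed copy of SRSF2 that kept its function in splicing (ENSG00000263465.4, chromosome 11, 95067197 to 95071224, plus strand, GRCh38). It had 31.3, 33.3, 36.8, 32.4 and 31.4 CPM in siUSP9X replicates 1 to 5, against 47.1, 45.97, 44.6, 46.7 and 49.1 CPM in siCtrl replicates 1 to 5. All siUSP9X values were under all siCtrl values, with a gap between the highest siUSP9X and the lowest siCtrl value, and replicate 2 lay among the other siUSP9X libraries. The means were 33.05 ± 2.23 CPM in siUSP9X and 46.7 ± 1.66 CPM in siCtrl (SD, n = 5 each), and the log2 fold change was -0.50 ± 0.09 (SE, edgeR adjusted p = 0.00856), with a 95% interval of -0.69 to -0.30. SRSF8 was called whichever of the 10 libraries was left out, and without siUSP9X replicate 2 the log2 fold change was -0.50 ± 0.08 (SE, edgeR adjusted p = 0.000334). With replicate number added as a term in the fit, SRSF8 was not called (edgeR adjusted p = 0.119). The gene shares no annotated exon with another gene, but its coding sequence resembles that of SRSF2, and how the authors' counting split reads between such copies is not stated in the sources used here.

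SRSF8 mRNA carries a long 3′ UTR of 3149 bases in the annotated transcript of GENCODE 29, and that UTR holds 3 of 4 words of 7 bases that had been picked over all genes from the fold changes of these same libraries. They are therefore no independent evidence for any member. The first word is AATCACA, which overlaps by all but 1 base with the second, spelled ATCACAA in turn. The third is CAACTCT, which overlaps in the same way with the last, spelled AACTCTA in turn. The words were searched on the transcript strand only. The lines under this paragraph give the sites in SRSF8 and those in SRSF3, which holds the same 3 words and did not pass the test, 5′ to 3′ on the plus strand of GRCh38, with the words in capitals.
SRSF8 chr11:95068876-95068905: tagctgacgatAATCACAccttttcccccg
SRSF8 chr11:95069245-95069274: tttattgttttATCACAAtgcagtttattt
SRSF8 chr11:95070042-95070071: gttaaaatcagCAACTCTttatacgttaaa
SRSF3 chr6:36602479-36602508: tttgaaaaatcCAACTCTcatcctgggcag
SRSF3 chr6:36604184-36604213: aaaatgaaaggAATCACAAaactgaactta

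At least 1 of the words stood in the 3′ UTR of 8 of the 33 tested members, 24.2%, against 28.0% of the 11849 tested genes with an annotated 3′ UTR. Among those genes the share was 49.4% of the lower ones, 25.5% of the higher ones and 27.2% of those not called. The words were picked from these same fold changes, so the 3 shares are no independent evidence, and they were not matched for UTR length. Of the members, SRSF8, SRSF3 and HNRNPA0 held 3 different words, SRSF12, HNRNPA1, HNRNPDL, HNRNPU and HNRNPUL2 held 1, and 25 held none. The median log2 fold change was -0.17 for the 8 members with a word and -0.07 for the 25 without, whereas over all tested genes with a UTR it was 0.10 with a word and -0.01 without, a description with no test. Long UTRs hold more words: among 1713 tested genes whose UTR was within 25% of the length of that of SRSF8, 50.7% held at least 1 word and 3.97% at least 3. SRSF3, with 3 words, stood at a log2 fold change of -0.06 ± 0.09 (SE, adjusted p = 0.666 in edgeR).

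The SR genes with the next smallest p-values, SRSF4, SRSF2 and SRSF9, had lower means in siUSP9X, and none of them passed the test. SRSF4, one of the longest SR proteins (ENSG00000116350.16, chromosome 1, 29147743 to 29181987, minus strand), had 102, 86.8, 110.3, 118 and 116 CPM in siUSP9X replicates 1 to 5, against 128, 135, 141, 124 and 123 CPM in siCtrl replicates 1 to 5. All siUSP9X values lay below all siCtrl values, and the lowest was that of replicate 2. This gave a log2 fold change equal to -0.29 ± 0.11 (SE, edgeR adjusted p = 0.111), and without siUSP9X replicate 2 it was -0.22 ± 0.07 (SE, edgeR adjusted p = 0.0394). SRSF2, also known as SC35 and used as the standard marker of nuclear speckles (ENSG00000161547.16, chromosome 17, 76734115 to 76737374, minus strand), had 186, 165, 224, 199.8 and 197 CPM in siUSP9X replicates 1 to 5, against 246, 245, 218, 201 and 221 CPM in siCtrl replicates 1 to 5. The groups overlapped, and the log2 fold change was -0.22 ± 0.11 (SE, edgeR adjusted p = 0.197). Exons of MFSD11 and MIR636 cover 36.7% of the exonic bases of SRSF2, and the strand used in counting is not given.

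SRSF9, an SR protein with a short arginine and serine domain (ENSG00000111786.8, chromosome 12, 120461668 to 120469793, minus strand), had 141, 60.2, 131, 177 and 142 CPM in siUSP9X replicates 1 to 5, against 118, 186, 187, 182 and 172 CPM in siCtrl replicates 1 to 5. The groups overlapped, and each held a library far below the rest, replicate 2 in siUSP9X and replicate 1 in siCtrl. The log2 fold change was -0.38 ± 0.24 (SE, edgeR adjusted p = 0.311), with a 95% interval of -0.90 to 0.15. Without siUSP9X replicate 2, SRSF2 stood at -0.17 ± 0.08 (SE, edgeR adjusted p = 0.150) and SRSF9 at -0.19 ± 0.12 (SE, edgeR adjusted p = 0.252). Exons of GATC on the other strand cover 46.2% of the exonic bases of SRSF9.

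The other 8 SR genes had log2 fold changes between -0.23 and 0.14, with edgeR adjusted p-values of 0.332 to 0.851. SRSF1, the founding SR protein, stood at 0.11 ± 0.14 (SE), though exons of other genes cover 60.7% of its exonic bases. SRSF3, the smallest SR protein and an adaptor for mRNA export, was the most abundant SR mRNA by count, with 498 ± 16.8 CPM in siUSP9X and 519 ± 42.3 CPM in siCtrl (SD, n = 5 each). SRSF7, a close relative that also serves export, stood at -0.03 ± 0.09 and SRSF5 at -0.04 ± 0.11 (SE). SRSF10, which turns into a general repressor of splicing when dephosphorylated, stood at 0.11 ± 0.12 and SRSF11 at 0.14 ± 0.12 (SE). The log2 fold changes of SRSF1, SRSF6, SRSF10 and SRSF11 were above 0 with all libraries and between -0.05 and 0.07 without siUSP9X replicate 2, the library with the highest level of each of these 4 genes in its group.

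SRSF12, a rare SR protein that antagonises other SR proteins in splicing assays, had 7.82, 13.5, 8.38, 8.81 and 9.13 CPM in siUSP9X replicates 1 to 5, against 11.8, 11.2, 10.03, 11.1 and 11.6 CPM in siCtrl replicates 1 to 5. Replicate 2 lay above every siCtrl library, and the other 4 siUSP9X libraries lay below every siCtrl library. SRSF12 stood at a log2 fold change equal to -0.23 ± 0.15 (SE, edgeR adjusted p = 0.332) with all libraries and -0.39 ± 0.11 (SE, edgeR adjusted p = 0.0168) without that one.

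**Figure D2:**
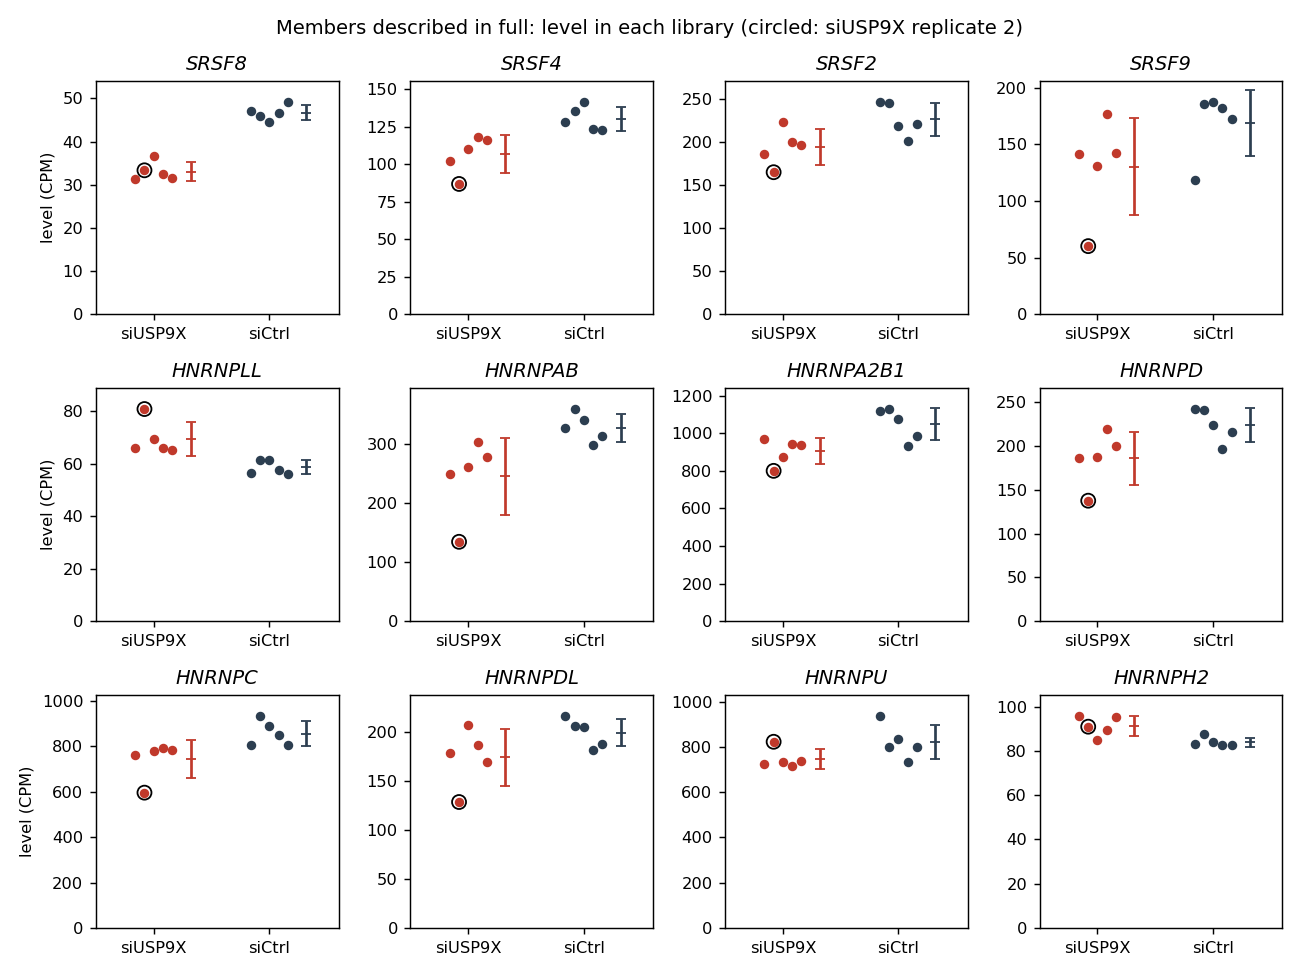
Level in each library, in CPM on axes that start at 0, of the 4 SR and 8 hnRNP genes described in full, with siUSP9X left and siCtrl right. Dots are libraries, the circled dot is siUSP9X replicate 2, and bars beside the dots give the mean and SD (n = 5). SRSF8 shows a gap between the groups, from 36.8 CPM at the top of siUSP9X to 44.6 CPM at the bottom of siCtrl. The groups also stand apart for SRSF4, HNRNPLL and HNRNPC, and overlap for the other 8 genes.

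No hnRNP gene of the 21 tested passed the edgeR test in either direction, and at an unadjusted p under 0.05 there were 1 higher and 2 lower, 14.3% of them against 27.8% of all tested genes. HNRNPLL, a relative of HNRNPL that binds CA-rich RNA and is best known for exon skipping in the CD45 transcript of activated T cells, had the highest log2 fold change (ENSG00000143889.15, chromosome 2, 38561978 to 38603586, minus strand). It had 66.1, 80.8, 69.5, 66 and 65.2 CPM in siUSP9X replicates 1 to 5, against 56.4, 61.5, 61.5, 57.8 and 55.99 CPM in siCtrl replicates 1 to 5. All siUSP9X libraries lay above all siCtrl libraries, with replicate 2 the highest. The log2 fold change was 0.25 ± 0.10 (SE, edgeR adjusted p = 0.126), and without siUSP9X replicate 2 it was 0.19 ± 0.07 (SE, edgeR adjusted p = 0.0761). DESeq2 put the adjusted p at 0.0426, within a range of 0.0426 to 0.378 over the alternatives tried.

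The hnRNP A proteins, of which A1 is known to bind UAG motifs and silence exons, and HNRNPAB did not pass the test. HNRNPAB, a single-strand nucleic acid binder found in both nucleus and cytoplasm, had the lowest log2 fold change of the hnRNP genes (ENSG00000197451.11, chromosome 5, 178204507 to 178211163, plus strand), with 250.1, 135, 261, 305 and 279 CPM in siUSP9X replicates 1 to 5, against 328, 360.1, 342, 299 and 314 CPM in siCtrl replicates 1 to 5. Replicate 2 was far below every other library, and siUSP9X replicate 4 lay within the siCtrl range. For HNRNPAB the log2 fold change was -0.42 ± 0.18 (SE, edgeR adjusted p = 0.165) and, without replicate 2 of siUSP9X, -0.26 ± 0.08 (SE, edgeR adjusted p = 0.0210). HNRNPA2B1, which also reads N6-methyladenosine and sorts RNA into exosomes (ENSG00000122566.21, chromosome 7, 26173057 to 26201529, minus strand), had 969, 799.6, 872, 943 and 938 CPM in siUSP9X replicates 1 to 5, against 1117, 1128, 1077, 931 and 987 CPM in siCtrl replicates 1 to 5. The groups overlapped through siCtrl replicate 4, the lowest of its group, and the log2 fold change was -0.21 ± 0.10 (SE, edgeR adjusted p = 0.173). Leaving out siUSP9X replicate 2 gave -0.17 ± 0.07 (SE, edgeR adjusted p = 0.106).

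HNRNPA1, the best studied antagonist of SRSF1 at exonic silencers, was the most abundant member by count with 1130.2 ± 85.3 CPM in siUSP9X and 1154 ± 93.5 CPM in siCtrl (SD, n = 5 each). Its log2 fold change stood at -0.03 ± 0.10 (SE, edgeR adjusted p = 0.845). Its 75 pseudogene rows held 2.26% as many counts as HNRNPA1 itself, and those of all 127 pseudogene rows of both families came to 0.501% of the members' counts. HNRNPA3 stood at 0.03 ± 0.09 (SE). The intronless HNRNPA1L2, a copy of HNRNPA1, was close to the detection filter at 2.08 ± 0.319 CPM in siUSP9X and 2.36 ± 0.723 CPM in siCtrl (SD, n = 5 each), and its reads cannot be told apart with certainty from those of HNRNPA1. HNRNPA0, which binds AU-rich elements, had 159.9, 60.2, 164, 193 and 157 CPM in siUSP9X replicates 1 to 5, against 176, 191, 182, 179.7 and 182 CPM in siCtrl replicates 1 to 5. Its groups overlapped, and replicate 2 had less than any other library of either group. The log2 fold change was -0.31 ± 0.24 (SE, edgeR adjusted p = 0.393), and without that library -0.11 ± 0.07 (SE, edgeR adjusted p = 0.298).

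Of the proteins that act on mRNA turnover, HNRNPD, known as AUF1 and a factor in the decay of mRNAs with AU-rich elements (ENSG00000138668.18, chromosome 4, 82352498 to 82374503, minus strand), had 187, 138, 188, 219 and 200.2 CPM in siUSP9X replicates 1 to 5, against 242, 241, 224, 196 and 216 CPM in siCtrl replicates 1 to 5. The groups overlapped, with siUSP9X replicate 2 the lowest, and the log2 fold change was -0.27 ± 0.13 (SE, edgeR adjusted p = 0.194). Its close relative HNRNPDL (ENSG00000152795.17, chromosome 4, 82422564 to 82430408, minus strand) had 179, 129, 207, 187 and 169.9 CPM in siUSP9X replicates 1 to 5, against 217, 206, 205, 182 and 188 CPM in siCtrl replicates 1 to 5. Here too the groups overlapped, and the log2 fold change was -0.20 ± 0.13 (SE, edgeR adjusted p = 0.312). Without siUSP9X replicate 2, HNRNPD stood at -0.17 ± 0.08 (SE, edgeR adjusted p = 0.127) and HNRNPDL at -0.10 ± 0.08 (SE, edgeR adjusted p = 0.378).

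HNRNPC, which binds uridine tracts, helps sort RNA for export by length and keeps Alu elements from being used as exons (ENSG00000092199.17, chromosome 14, 21209136 to 21269494, minus strand), had 760.3, 596, 779, 795 and 786 CPM in siUSP9X replicates 1 to 5, against 805, 935, 888, 849 and 806 CPM in siCtrl replicates 1 to 5. The siUSP9X libraries lay below the siCtrl libraries without overlap, by a small margin except in replicate 2. HNRNPC had a log2 fold change equal to -0.20 ± 0.10 (SE, edgeR adjusted p = 0.214) and, without that replicate, -0.13 ± 0.07 (SE, edgeR adjusted p = 0.165). With SRSF8 and SRSF4, HNRNPC was 1 of 3 members whose siUSP9X libraries were all below siCtrl, 9.09% of the members against 6.85% of tested genes, and HNRNPLL was the 1 member with all above, 3.03% against 7.79%. The 4 HNRNPC-like genes HNRNPCL1 to HNRNPCL4 had 0 counts in every library, which allows up to 0.0351 CPM over the siUSP9X group and 0.0298 CPM over the siCtrl group, taking 3 counts as the limit for counting error only.

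HNRNPU, also called SAF-A, a scaffold factor that ties RNA to chromatin (ENSG00000153187.19, chromosome 1, 244840638 to 244864560, minus strand), had 723, 823, 732, 718 and 737 CPM in siUSP9X replicates 1 to 5, against 938, 801, 834, 735 and 800.2 CPM in siCtrl replicates 1 to 5. Replicate 2 was the highest of siUSP9X, the other 4 lay near or below the lowest siCtrl library, and the log2 fold change was -0.14 ± 0.09 (SE, edgeR adjusted p = 0.336), or -0.17 ± 0.07 (SE, edgeR adjusted p = 0.0998) without replicate 2. COX20 on the other strand covers 15.6% of its exonic bases. The related HNRNPUL1 and HNRNPUL2, which take part in the response to DNA breaks, stood at -0.15 ± 0.11 and 0.08 ± 0.10 (SE), with 44.1% of the exonic bases of HNRNPUL2 shared with a readthrough transcript.

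Among the binders of G tracts, HNRNPH2 on the X chromosome (ENSG00000126945.8, chromosome X, 101408295 to 101414133, plus strand) had 95.9, 90.98, 84.9, 89.7 and 95.4 CPM in siUSP9X replicates 1 to 5, against 83.3, 87.6, 83.97, 82.5 and 82.9 CPM in siCtrl replicates 1 to 5. The groups overlapped narrowly, and the log2 fold change was 0.12 ± 0.08 (SE, edgeR adjusted p = 0.342), or 0.12 ± 0.07 (SE, edgeR adjusted p = 0.233) without siUSP9X replicate 2. Exons of the readthrough gene RPL36A-HNRNPH2 on the same strand cover 16.3% of the exonic bases of HNRNPH2. Its relatives HNRNPH1, HNRNPH3 and HNRNPF stood at -0.03 ± 0.11, 0.06 ± 0.13 and -0.07 ± 0.11 (SE). For the remaining proteins, HNRNPK, a binder of C-rich RNA and DNA, stood at -0.08 ± 0.08, and HNRNPL, a binder of CA repeats, at 0.04 ± 0.09 (SE). HNRNPM, a splicing factor known from epithelial to mesenchymal transition, stood at -0.08 ± 0.09, and HNRNPR, known in mouse motor neurons as a factor of axonal mRNA transport, at -0.08 ± 0.09 (SE).

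**Figure D3:**
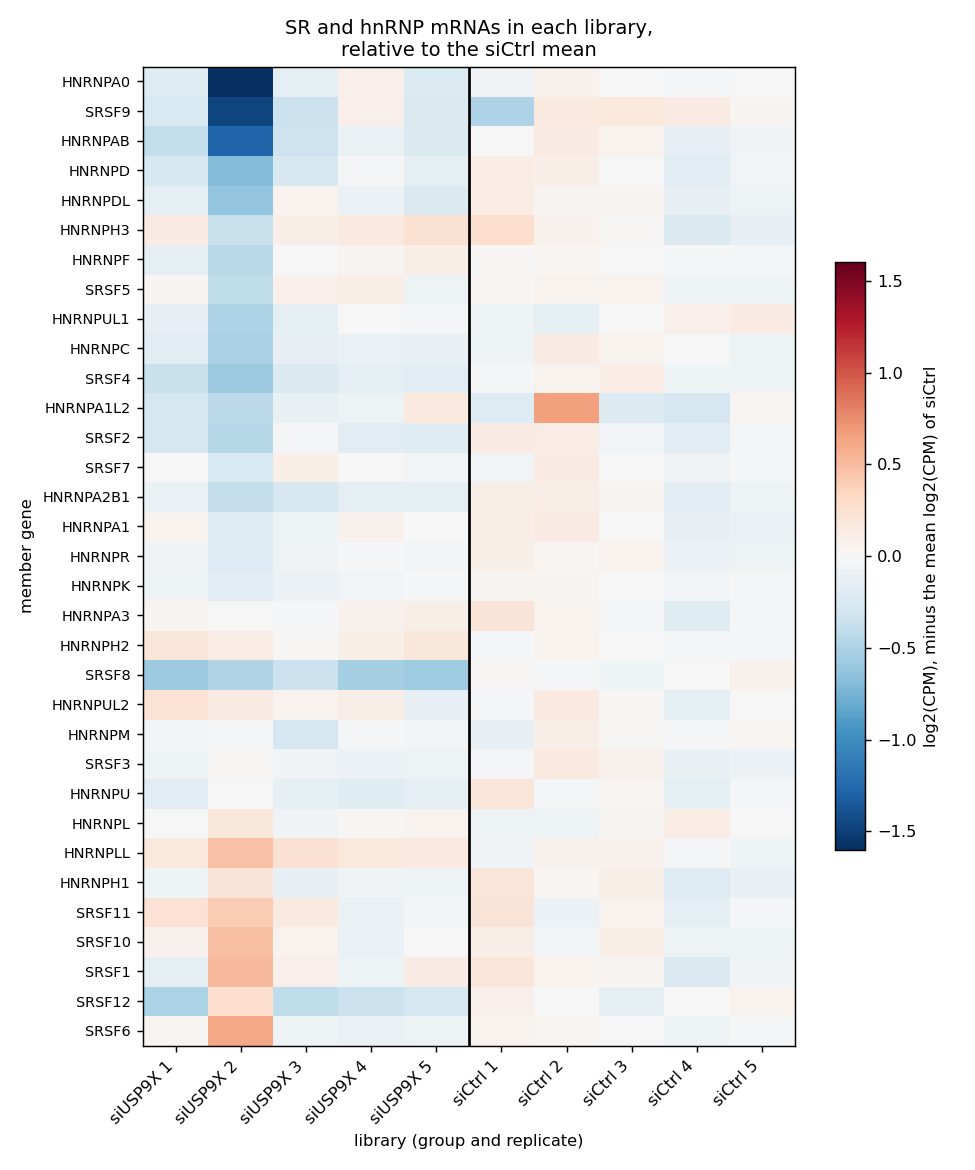
Level of each tested member in each library, as log2 CPM minus the mean log2 CPM of siCtrl, with the 5 siUSP9X libraries left of the line and the 5 siCtrl libraries right of it. Members run from those lowest in siUSP9X replicate 2 (HNRNPA0) to those highest in it (SRSF6). SRSF8 is low in all 5 siUSP9X libraries, replicate 2 included, and the column of replicate 2 differs from the 4 others in both directions.

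Replicate 2 of siUSP9X deviated both ways among the splicing regulators. This library was the highest of its group for 11 members, the lowest for 18 and between the others for 4. It was thus at an extreme for 87.9% of the members, near the 85.6% of all tested genes. It lay more than 1.25-fold above the mean of the other 4 for 5 members and more than 1.25-fold below it for 12. At the ends were HNRNPA0, with 60.2 CPM where the rest of siUSP9X had 157 to 193 CPM, and SRSF6, an SR protein of the same architecture as SRSF4 and SRSF5, with 371 CPM where the rest had 224 to 247 CPM. The median absolute log2 deviation of this library from the other 4 was 0.34 over the members and 0.68 over all tested genes. The deviation ran with transcript length over all tested genes (Pearson r = 0.47 with log2 length, and -0.57 with GC content, across 13909 genes, which are not independent). Over the 33 members the same values were 0.09 and -0.25. The part of length and GC content in these differences was not tested. The ranks and deviations above hold after TMM correction and can change without it. In replicate 2 the SR genes summed to 2156 CPM, above the 2007 to 2102 CPM of the other siUSP9X libraries. As a share of all its counts they came to 0.190%, below the 0.204 to 0.217% of the others.

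Leaving out siUSP9X replicate 2 narrowed the errors and moved few members past the threshold. The median SE of the log2 fold change was 0.11 with all libraries and 0.07 without that one. Then 4 members fell, SRSF8, SRSF4, SRSF12 and HNRNPAB, and 0 rose (edgeR), 12.1% and 0% of members against 11.5% and 11.9% of 14086 tested genes. The share of members lower was again near the background. Their median log2 fold change was -0.07, against 0.01 over all tested genes.

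Summed by family, the groups overlapped. The 12 SR mRNAs together made up 2068 ± 60.6 CPM in siUSP9X and 2151 ± 104 CPM in siCtrl (SD, n = 5 each). The hnRNP mRNAs together made up 7693 ± 445 CPM in siUSP9X and 8323 ± 413 CPM in siCtrl. The sums for SR genes were 2007 to 2156 CPM in siUSP9X and 2019 to 2273 CPM in siCtrl, and for hnRNP genes 6963 to 8087 CPM in siUSP9X and 7779 to 8693 CPM in siCtrl. The lowest hnRNP sum was that of siUSP9X replicate 2, and the other 4 siUSP9X libraries had 7609 to 8087 CPM.

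Per kilobase of an annotated transcript, the levels of the members spanned more than 2 orders of magnitude. HNRNPC was the highest, with 434 ± 48.6 in siUSP9X and 499.8 ± 32.4 in siCtrl (CPM per kilobase, SD, n = 5 each). In CPM per kilobase, HNRNPA2B1 had 259 ± 19.6 in siUSP9X and 299.7 ± 24.5 in siCtrl, HNRNPA1 had 274 ± 20.7 in siUSP9X and 280.1 ± 22.7 in siCtrl, and HNRNPK had 262 ± 11.3 in siUSP9X and 276 ± 8.37 in siCtrl. In siCtrl the libraries of HNRNPC stood clear of the next gene, those of HNRNPA2B1, HNRNPA1 and HNRNPK overlapped in turn, and most neighbours further down overlapped too. Of the SR genes the highest levels per kilobase in siCtrl were those of SRSF9, with 108 ± 35.6 in siUSP9X and 141 ± 24.2 in siCtrl, and of SRSF3, with 118 ± 3.99 in siUSP9X and 123 ± 10.01 in siCtrl. At the low end, each clear of its neighbour in siCtrl, came HNRNPLL, SRSF8, HNRNPUL2, SRSF12 and HNRNPA1L2. SRSF8 had 8.20 ± 0.555 in siUSP9X and 11.6 ± 0.413 in siCtrl, and HNRNPA1L2, the lowest, 1.52 ± 0.232 in siUSP9X and 1.72 ± 0.527 in siCtrl (CPM per kilobase). The top of the order depends on the length chosen: divided by all annotated exons, a choice added after the data were seen, HNRNPC came to 117 at rank 4 in siCtrl, HNRNPA1 came to 227 at rank 1, and SRSF8 stayed at 11.6 CPM per kilobase. The order of the SR genes also changes: SRSF9 came to 45.2 at rank 13 in siCtrl, below SRSF2 at 75.1 and SRSF3 at 72.9 CPM per kilobase, and below SRSF7 and SRSF6.

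**Figure D4:**
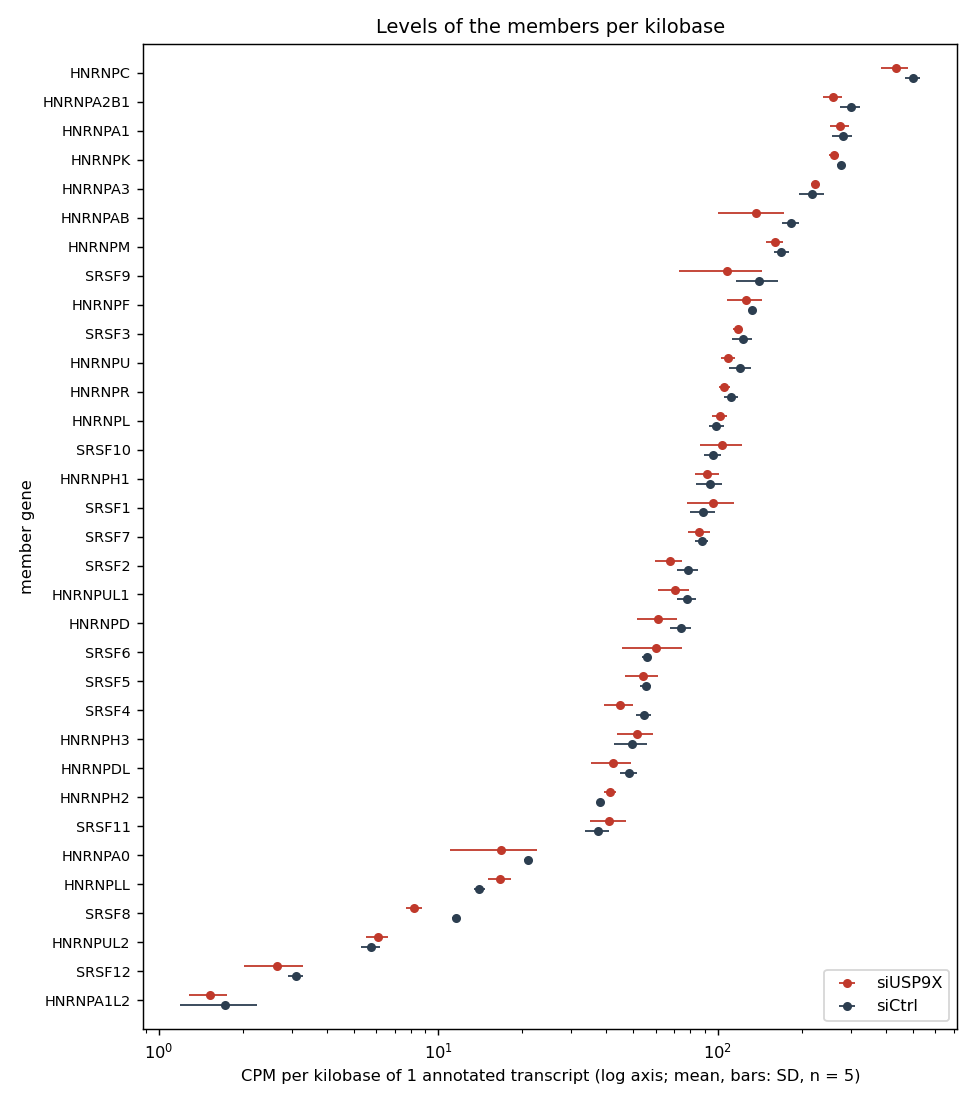
Level of each member with counts, in CPM per kilobase of 1 annotated transcript on a log axis, with siUSP9X (red) above siCtrl (dark) in each row. Points are means and bars are SD (n = 5). HNRNPC is at the top with 433.6 in siUSP9X and 499.8 in siCtrl, and HNRNPA1L2 at the bottom with 1.52 in siUSP9X and 1.72 in siCtrl.

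The members differed in how they varied across the libraries. As a measure, the log2 CPM of each member was correlated with the median member, the median over the members of their deviations from their own means, over the 10 libraries, which all members share together with their scaling. HNRNPA2B1 (r = 0.96), HNRNPK (r = 0.96) and HNRNPD (r = 0.96) were most like it, and over the 9 libraries without siUSP9X replicate 2 they had r = 0.93, 0.85 and 0.91. HNRNPL (r = -0.81), HNRNPLL (r = -0.72) and SRSF6 (r = -0.57) were least like it. Without that library HNRNPL had r = -0.66 and HNRNPLL r = -0.33, whereas SRSF6 turned to r = 0.71, so its place at the end rested on 1 library. These are descriptions with no test.

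The factors around the SR and hnRNP proteins were followed in 7 lists of splicing genes, 147 of them tested. In all, 4 rose and 2 fell (edgeR), or 11 and 22 without siUSP9X replicate 2. The 4 and 2 genes are 2.72% higher and 1.36% lower, against 4.09% and 3.22% of all tested genes. Without that library the shares are 7.48% higher and 14.97% lower, against 11.9% and 11.5%. The 6 genes were 2 kinases of SR proteins, 3 regulators known from particular tissues and 1 protein of the U1 particle.

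In the SR kinase list 1 gene went up and another down. Among 17 kinases, phosphatases and import factors, 1 rose and 1 fell, with a median log2 fold change of 0.13. Over all tested genes 4.09% were higher and 3.22% lower. When siUSP9X replicate 2 was left out, 3 rose (SRPK2, DYRK1A and TNPO1) and 2 fell (CLK3 and TNPO2), and the median was 0.03. The shares of all tested genes were then 11.9% higher and 11.5% lower. SRPK2, a kinase of the cytoplasm that primes SR proteins for import (ENSG00000135250.16, chromosome 7, 105110704 to 105399308, minus strand), had 33.6, 58.6, 36.2, 32.4 and 34 CPM in siUSP9X replicates 1 to 5, against 29.3, 22.6, 24.6, 25.7 and 25.1 CPM in siCtrl replicates 1 to 5. The groups did not overlap, and the log2 fold change was 0.61 ± 0.17 (SE, edgeR adjusted p = 0.0497). CLK3, a nuclear kinase that releases SR proteins from speckles (ENSG00000179335.18, chromosome 15, 74598500 to 74645414, plus strand), had 26.8, 19.2, 22.2, 23.97 and 24.7 CPM in siUSP9X replicates 1 to 5, against 28.9, 32.9, 30.02, 32 and 30.3 CPM in siCtrl replicates 1 to 5. All siUSP9X libraries lay below all siCtrl libraries, and the log2 fold change was -0.40 ± 0.11 (SE, edgeR adjusted p = 0.0476). Both calls lie at the threshold and were kept on leaving out only 2 of the 10 libraries in turn, though without siUSP9X replicate 2 they stood at 0.42 ± 0.09 (SE, edgeR adjusted p = 0.00284) for SRPK2 and -0.33 ± 0.09 (SE, edgeR adjusted p = 0.0102) for CLK3.

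Of 19 other sequence-specific regulators, 3 that are known from particular tissues rose and 0 fell. Over all tested genes 4.09% were higher and 3.22% lower. Leaving out siUSP9X replicate 2, there were 4 higher and 4 lower genes, the 3 and QKI higher and ESRP1, MBNL1, RBFOX2 and RBM10 lower. Without that library the shares of all tested genes were 11.9% higher and 11.5% lower. ESRP1, a regulator known from epithelial cells, stood at -0.80 ± 0.26 (SE, edgeR adjusted p = 0.0837) with all libraries and -1.05 ± 0.20 (SE, edgeR adjusted p = 0.00107) without that one. NOVA2, a neuronal splicing factor that also acts in endothelium (ENSG00000104967.6, chromosome 19, 45933734 to 45973546, minus strand), had 9.99, 17.4, 7.97, 10.8 and 9.13 CPM in siUSP9X replicates 1 to 5, against 3.50, 4.16, 3.32, 4.32 and 5.35 CPM in siCtrl replicates 1 to 5, and its log2 fold change came to 1.42 ± 0.22 (SE, edgeR adjusted p = 0.00447). CELF2, known from brain, heart and T cells (ENSG00000048740.18, chromosome 10, 10798397 to 11336675, plus strand), had 70.2, 143, 73.4, 76.8 and 83.9 CPM in siUSP9X replicates 1 to 5, against 49.6, 40.1, 43.1, 41.2 and 43.3 CPM in siCtrl replicates 1 to 5, and its log2 fold change came to 1.04 ± 0.19 (SE, edgeR adjusted p = 0.00963). RBM24, a regulator of muscle exons (ENSG00000112183.14, chromosome 6, 17281346 to 17293875, plus strand), had 14.5, 11.4, 15.2, 17.8 and 18.02 CPM in siUSP9X replicates 1 to 5, against 9.83, 8.97, 8.05, 7.31 and 7.53 CPM in siCtrl replicates 1 to 5, and its log2 fold change came to 0.88 ± 0.15 (SE, edgeR adjusted p = 0.00647). All siUSP9X libraries of the 3 genes lay above all siCtrl libraries, and each was called whichever of the 10 libraries was left out. With replicate number added as a term in the fit, NOVA2 was called (edgeR adjusted p = 0.0447). CELF2 (edgeR adjusted p = 0.0935) and RBM24 (edgeR adjusted p = 0.0991) were then not called. Without siUSP9X replicate 2 the log2 fold changes were 1.19 ± 0.15 (SE, edgeR adjusted p = 2.59e-05) for NOVA2, 0.81 ± 0.09 (SE, edgeR adjusted p = 3.23e-06) for CELF2 and 0.98 ± 0.12 (SE, edgeR adjusted p = 1.63e-05) for RBM24. Levels of NOVA2 and RBM24 were low beside those of most SR and hnRNP genes.

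In the U1 and U2 particles and their Sm core, 1 of 26 genes fell and 0 rose, with a median log2 fold change of -0.30, or -0.16 without siUSP9X replicate 2. Without that library 6 fell (SNRPC, SNRPD2, SNRPG, PHF5A, SF3A1 and SF3B2) and SF3B1 rose. The shares of all tested genes were 3.22% lower and 4.09% higher with all libraries, and 11.5% and 11.9% without that one. The gene called with all libraries was SNRPC, which encodes the U1 protein that steadies pairing with the 5′ splice site (ENSG00000124562.9, chromosome 6, 34757406 to 34773794, plus strand), with 45.03, 19.9, 51.6, 48.7 and 44.1 CPM in siUSP9X replicates 1 to 5, against 91.6, 126, 101, 104 and 103 CPM in siCtrl replicates 1 to 5. The groups stood far apart, and the log2 fold change was -1.33 ± 0.22 (SE, edgeR adjusted p = 0.00601), or -1.15 ± 0.09 (SE, edgeR adjusted p = 1.61e-07) without that library. With replicate number added as a term in the fit, SNRPC was not called (edgeR adjusted p = 0.0826). It also holds 1 of the words shown for SRSF8, in a 3′ UTR of 224 bases on the plus strand.
SNRPC chr6:34773766-34773794: aataaaattgtCAACTCTttcagttaaaa

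The same words also stood in 3′ UTRs of genes that rose: NOVA2 holds 1 of them in 6129 bases and CELF2 holds 2 in 6264 bases. RBM24, SRPK2 and CLK3 hold none.

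In the other 4 lists no gene passed the edgeR test in either direction, and at an unadjusted p under 0.05 there were 3 of 24, 6 of 18, 3 of 26 and 5 of 17 genes, against 27.8% of all tested genes. The same 4 lists without siUSP9X replicate 2 had 3 higher genes (SREK1, PTBP3 and UPF2) and 10 lower ones. Over all tested genes that fit called 11.9% higher and 11.5% lower. The 10 lower list genes were ELAVL1, PCBP1, RALY and TAF15 of the hnRNP proteins with other symbols, EFTUD2, SART1 and XAB2 of the tri-snRNP list, and RBM8A, SMG5 and SMG9 of the decay list. Among 24 SR-related activators the smallest p was that of SREK1, a regulator with an arginine and serine domain, at 0.70 ± 0.24 (SE, edgeR adjusted p = 0.0950). Of 18 hnRNP proteins with other symbols it was PCBP1, an intronless binder of C-rich RNA also known as hnRNP E1, with 134, 52.7, 133, 149 and 141 CPM in siUSP9X replicates 1 to 5, against 160.5, 196, 202, 224 and 219 CPM in siCtrl replicates 1 to 5. The groups did not overlap, replicate 2 was far below the rest, and the log2 fold change was -0.71 ± 0.24 (SE, edgeR adjusted p = 0.0864), or -0.52 ± 0.09 (SE, edgeR adjusted p = 0.000411) without replicate 2. Among 26 proteins of the tri-snRNP, the Prp19 complex and the helicases it was XAB2, a protein of both splicing and DNA repair, at -0.36 ± 0.13 (SE, edgeR adjusted p = 0.0998). For 17 genes of nonsense-mediated decay and the exon junction complex, which act on transcripts that carry decay exons, it was UPF2, at 0.62 ± 0.20 (SE, edgeR adjusted p = 0.0756). Without siUSP9X replicate 2, SREK1 stood at 0.42 ± 0.13 (SE, edgeR adjusted p = 0.0241), XAB2 at -0.27 ± 0.09 (SE, edgeR adjusted p = 0.0328) and UPF2 at 0.40 ± 0.10 (SE, edgeR adjusted p = 0.0107). With all libraries DESeq2 called each of these 4 genes, and over the 147 genes of the 7 lists it called 10 higher and 15 lower, with the DESeq2 background at 9.25% and 7.89% of genes.

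**Figure D5:**
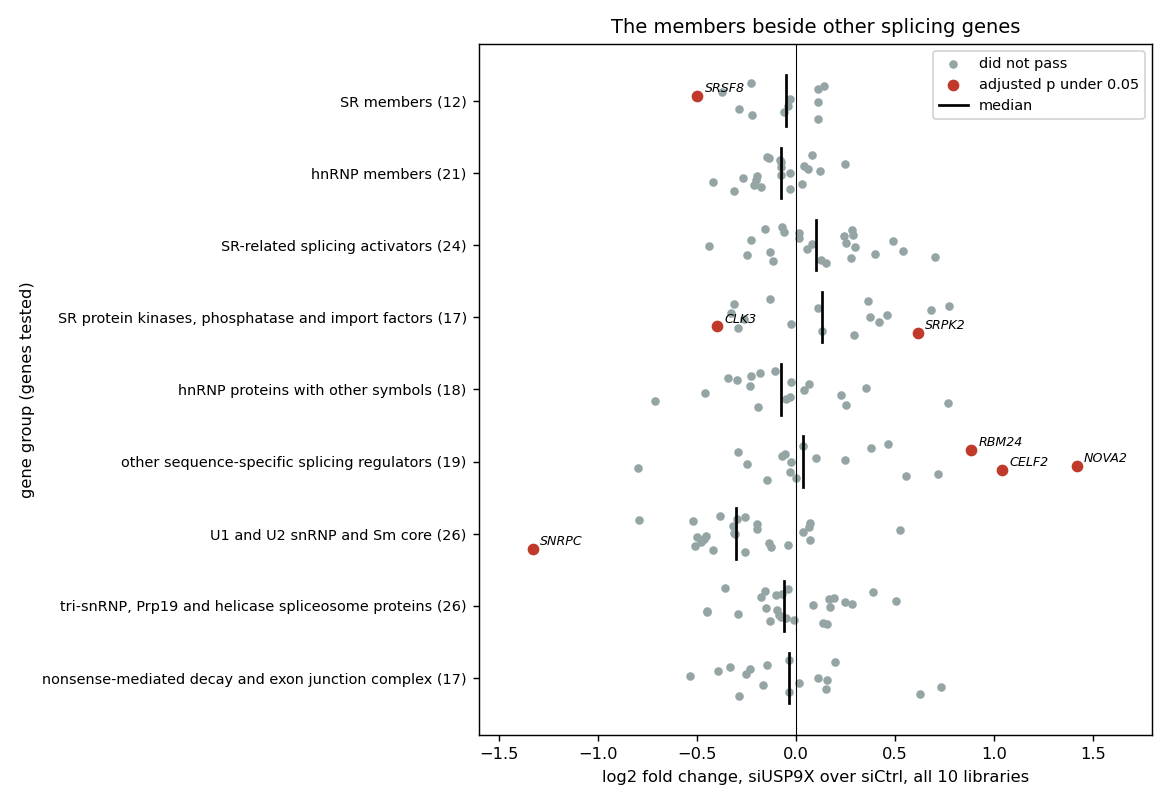
Log2 fold change, siUSP9X over siCtrl with all 10 libraries, of the 12 SR and 21 hnRNP members (top rows) and of the tested genes of 7 other splicing lists. Red dots are genes at an adjusted p under 0.05, grey dots did not pass, and black bars are medians. The members lie between -0.50 and 0.25, and the red dots of the other lists run from SNRPC at -1.33 to NOVA2 at 1.42.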

How the data were processed

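The deposited table holds whole-number counts per gene symbol from 10 RNA-seq libraries, 5 siUSP9X and 5 siCtrl, grouped by the treatment label. TRIzol extraction and a stranded mRNA kit were used, per the labels' protocols. Per the submitters' processing notes, hg38, RSEM and DESeq2 were used, and whether the counts are rounded estimates, the aligner, the annotation and the strand used in counting are not given in the sources used here.

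Counts were tested over all genes with edgeR 4.0.16 (R 4.3.3; quasi-likelihood test with robust estimation, TMM factors, filterByExpr with a minimum count of 10, group as the only term), two-sided, with Benjamini-Hochberg adjustment and a threshold of 0.05. The script was tested on simulated data. DESeq2 1.42.0 and limma-voom (limma 3.58.1), other scalings and filters, a replicate block, a threshold of 0.01 and each library left out were alternatives. No pair of replicates was alike within sampling noise, where the chi-square per degree of freedom was 4.92 or more over 20 pairs. Coordinates, lengths and 3′ UTRs are from GENCODE 29 (GRCh38), with the principal transcript where 1 is needed.

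The members, gene lists and words were chosen with earlier results of these data known. Genes described in full were members past the threshold, otherwise the 4 SR and 8 hnRNP genes with the smallest p, and per list those past the threshold or the smallest p. SRSF12 and HNRNPA0 were added after their values were seen, and ESRP1 was also added outside these rules. MATR3 has several rows and was left out of its list.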

Additional observations from a re-analysis of the deposited data

Results flagged for a closer look

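In 88 groups of 5 libraries, 44 genes in each treatment, 21 had a library far from the other 4. For independent groups with normal spread, about 1 in 20 would. These genes share the same 10 libraries, so the counts cannot be set against that rate. The measure is the gap of the highest or lowest library to its neighbour as a share of the group's range, with a critical value of 0.710. In 15 of the 21 the library was siUSP9X replicate 2.

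In CPM after TMM correction it was the highest of its group for SRSF6 (0.845), SRSF10 (0.736), SRSF12 (0.768), HNRNPH1 (0.805), HNRNPLL (0.723) and HNRNPU (0.817). Among list genes it was the highest for SRPK2 (0.854), CELF2 (0.810) and UPF2 (0.787). It was the lowest for HNRNPA0 (0.730), HNRNPC (0.827), HNRNPH3 (0.719) and HNRNPR (0.805), and for PCBP1 (0.833) and SNRPC (0.762).

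HNRNPM was low in siUSP9X replicate 3 (0.848), at 351 CPM against 407 to 417 CPM in the rest of that group. In siCtrl, replicate 2 was the highest for SRSF7 (0.738), HNRNPA1L2 (0.745) and HNRNPH2 (0.711). Replicate 1 of siCtrl was the highest for SREK1 (0.823) and the lowest for SRSF9 (0.780), where it had 118 CPM against 172 to 187 CPM in the rest of siCtrl.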

How the results depend on the processing

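Over 23 named genes, 395 of 437 single-gene values kept their direction and their side of the threshold, 30 were no longer past it, 12 came to pass it and 0 reversed. Leaving out each library in turn gave 170 to 1674 higher and 189 to 1620 lower genes over all tested genes, 1 to 4 lower and 0 higher members, and 3 to 11 higher and 1 to 22 lower genes of the splicing lists, with the highest counts without siUSP9X replicate 2. DESeq2 called 1264 higher and 1078 lower genes, 1 higher and 2 lower members, and 10 higher and 15 lower list genes. At a threshold of 0.01 there were 102 higher and 136 lower genes and 1 lower list gene. With upper-quartile factors, library totals or no filter 1 list gene was lower, since CLK3 no longer passed. The median log2 fold change of the members stayed between -0.10 and -0.05. The causes were not tested.

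The libraries showed no pairing by replicate number: same-numbered libraries had deviations correlated at -0.49 to 0.28, and 0 of 5 matched their own number best. With only 5 pairs this cannot exclude that same-numbered libraries shared a culture or a day. With the replicate block there were 34 higher and 57 lower genes, 0 higher and 0 lower members, and 1 higher and 0 lower list genes. The log2 fold change of SRSF8 was then -0.50, with an edgeR adjusted p of 0.119, in a range of 1.21e-08 to 0.119 over the alternatives.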
